A study of Mus musculus with 6 samples.

Results

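The immunoglobulin genes comprise the variable (V) and constant (C) gene segments from which antibodies are encoded, and they were chosen by annotation as every row of the deposited count table whose biotype is IG_V_gene or IG_C_gene. There were 231 such rows among 54532 genes, 218 V genes and 13 C genes. They lie in the heavy chain locus on chromosome 12 (113 V and 8 C genes), the kappa locus on chromosome 6 (102 V genes and Igkc) and the lambda locus on chromosome 16 (3 V and 4 C genes). The rule itself reads no expression value, but the group was selected on the counts of the same WT and Abca4KO libraries, whose results were known, so the values below describe these libraries and the p-values beside them support nothing further.

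Retinal pigment epithelium (RPE), the pigmented layer under the photoreceptors, was sequenced in bulk in 3 WT and 3 Abca4KO (Abca4-/-) libraries, which the series' design text gives as 3 mice of each genotype. Wild-type animals were 129S1/SvlmJ, and knockouts came from the line Abca4tm1Ght/J of the same supplier, Jackson, which lacks the retinoid transporter Abca4. Thus line and genotype cannot be told apart. Both groups carried the Leu450 form of Rpe65, lived in a 12 h light cycle on a standard diet and were sampled 5 h after the light came on. Age and sex are not given in the sources used here. Libraries held 17047286 to 19841307 counts. Expressed as CPM, the count scaled to library size, Abca4 measured 955, 932 and 968 in WT and 32.6, 39.1 and 36.8 in Abca4KO (replicates 1, 2 and 3 in order, here and below), so each library matched its genotype. The RPE isomerase gene Rpe65 lay between 4327 and 5593 CPM in all 6 libraries.

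Antibodies are made by B cells and, in far larger amounts, by plasma cells, the secreting cells that B cells give rise to. Each clone joins 1 V segment per chain to a C segment: the C gene of the heavy chain sets the class, and the light chain is either kappa or lambda. Naive B cells use the IgM and IgD genes, and class switching replaces them by an IgG, IgA or IgE gene. The choroid beneath the RPE is a vascular tissue in which resident and passing leukocytes occur. In bulk RNA, fewer cells of a type and less RNA per cell cannot be told apart.

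The V genes are close relatives, which bears on every V count below. Igkv1-110, the V gene with the most counts, and Igkv1-117, the next, were 97.5% identical over 401 aligned bases of their GENCODE M21 transcripts. The first 180 bases of their V exons (exon 2, GRCm38, plus strand, chr6:68270955-68271134 for Igkv1-110 and chr6:68121515-68121694 for Igkv1-117) are shown because a read is assigned to either gene by the few differing bases. Capitals in Igkv1-117 mark the 6 bases that differ from Igkv1-110.
Igkv1-110: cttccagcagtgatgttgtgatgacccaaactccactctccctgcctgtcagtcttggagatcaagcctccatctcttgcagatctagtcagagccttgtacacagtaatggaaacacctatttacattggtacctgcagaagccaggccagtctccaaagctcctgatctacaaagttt
Igkv1-117: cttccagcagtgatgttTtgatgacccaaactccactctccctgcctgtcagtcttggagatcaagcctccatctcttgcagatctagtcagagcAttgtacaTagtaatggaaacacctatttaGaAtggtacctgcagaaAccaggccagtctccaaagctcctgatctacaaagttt
Of all windows of 50 bases in Igkv1-110 transcripts, 50.9% also occurred in another gene, most often Igkv1-117, and 16.2% of windows of 100 bases did so. Read length and the handling of reads that match several genes are not given in the sources used here, so single V counts are uncertain.

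The C genes were far easier to tell apart. No window of 50 bases of Igkc, Igha, Ighm, Ighd, Ighe or Iglc1 occurred in another gene's transcripts, and of the other named C genes the shares were 0.393% for Ighg1, 1.58% for Ighg3, 4.15% for Ighg2b, 5.49% for Ighg2c, 7.65% for Iglc2 and 10.7% for Iglc3. The closest heavy chain pair was Ighg2b and Ighg2c, at 87.9% identity over 1222 aligned bases. The first 180 bases of their first constant exons (exon 1, GRCm38, minus strand, chr12:113307754-113307933 for Ighg2b and chr12:113288753-113288932 for Ighg2c) are shown because they had the largest fitted fold changes of the tested heavy chain genes. Capitals in Ighg2c mark the 16 bases that differ from Ighg2b.
Ighg2b: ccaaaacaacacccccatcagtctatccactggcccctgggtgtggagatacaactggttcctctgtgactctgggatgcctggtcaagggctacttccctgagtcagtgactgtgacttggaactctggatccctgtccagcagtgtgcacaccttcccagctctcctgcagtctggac
Ighg2c: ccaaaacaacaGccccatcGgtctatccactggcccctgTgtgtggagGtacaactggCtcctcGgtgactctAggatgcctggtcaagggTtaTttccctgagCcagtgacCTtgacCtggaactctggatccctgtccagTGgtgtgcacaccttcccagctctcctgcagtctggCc
The reference genome is of the strain C57BL/6J, which carries Ighg2c where some other mouse strains carry Ighg2a. The deposited table has no row named Ighg2a, and which of the genes these mice carry was not tested.

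Immunoglobulin transcripts were present in every library and their amount was uneven within the Abca4KO group. The 231 genes summed to 98.7, 156 and 30.0 CPM in WT replicates 1, 2 and 3 and to 103, 1034 and 600.3 CPM in Abca4KO replicates 1, 2 and 3. Abca4KO 2 and Abca4KO 3 stood above every other library, whereas Abca4KO 1 lay within the WT range, so the genotypes overlapped. The WT mean was 94.8 ± 62.9 CPM and the Abca4KO mean 579 ± 466 CPM (SD, n = 3 each), a 6.11-fold ratio or 2.61 on the log2 scale. Without Abca4KO 2 the log2 ratio was 1.89. Highest and lowest library, Abca4KO 2 and WT 3, differed 34.5-fold. Of all counts in these genes, 80.5% came from Abca4KO 2 and Abca4KO 3, and 75.9% from the 3 genes Igkc, Igha and Ighm.

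Most of the 231 genes were too sparse to compare gene by gene. A total of 106 had no count in any library, 125 had at least 1 count and 83 had at least 10 counts over the 6 libraries. The low-count filter left 17, of which 9 were C genes, 6 kappa V genes, 2 lambda V genes and 0 heavy chain V genes. Of these 17, 0 passed the threshold of 0.05 on edgeR's adjusted p, beside 0.0461% of all 17340 genes tested (0.0346% in the higher direction). At an unadjusted p under 0.05, 8 of the 17 were higher in Abca4KO, beside 3.15% of all genes tested. DESeq2 gave an adjusted p to 14 of the 17 and called 3 of them, beside 0.701% of all genes to which it gave one. Limma-voom with sample weights called 0 of the 17, beside 0.179% of all genes. The median log2 fold change was 2.66 over the 17 and -0.01 over all genes tested, 14 of the 17 were above 0 (47.8% of all genes), 11 were above 1 (1.38% of all genes), and 2 had every Abca4KO library above every WT library (5.93% of all genes). Passing the filter required counts in several libraries, so these 17 do not stand for the whole family, and nothing is read from these shares. Ighg2c and Igkv1-110 reached 10 counts only in Abca4KO libraries, the group where they were high. Ighg1, Ighg3, Igkv1-117 and Igkv6-17 reached 10 counts in every Abca4KO library but not in every WT library. They too passed the filter through the group where they were high. Fold changes below are log2, Abca4KO minus WT, and adjusted p-values without a named tool are from edgeR's quasi-likelihood test.

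**Figure D1:**
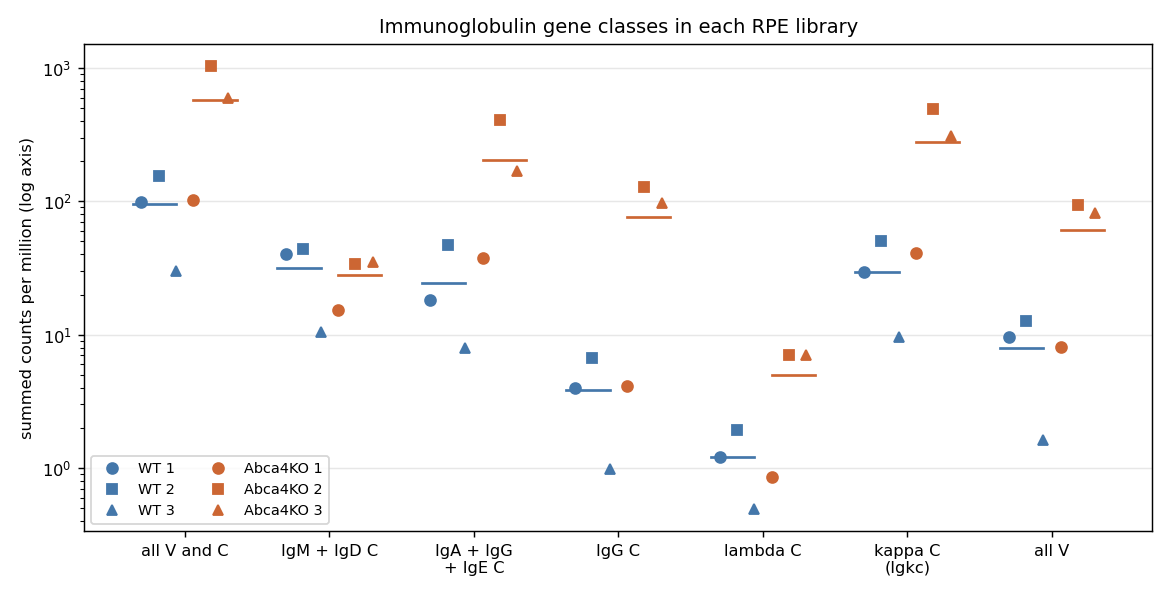
Summed CPM (log axis) of immunoglobulin gene classes, 1 point per library and a line at each group mean (n = 3). Abca4KO 2 and Abca4KO 3 lie above the other 4 libraries in every class except IgM plus IgD, where the genotypes overlap throughout.

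Among heavy chain C genes, the IgG genes differed most between libraries. Together the 4 IgG genes measured 3.98, 6.66 and 0.980 CPM in WT and 4.11, 129 and 97.5 CPM in Abca4KO replicates 1, 2 and 3. Abca4KO 1 again lay inside the WT range. Ighg2b measured 1.36, 1.88 and 0.708 CPM in WT and 1.62, 66.1 and 50.3 CPM in Abca4KO. These gave 4.89 as fold change on the log2 scale (SE 1.19, adjusted p = 0.541). Ighg1 measured 1.62, 4.40 and 0.0544 CPM in WT and 0.812, 42.7 and 11.5 CPM in Abca4KO (log2 fold change 3.17, SE 1.40, adjusted p = 0.712). In Ighg1 the lowest Abca4KO library was below 2 of the 3 WT libraries. Ighg3 measured 0.785, 0.215 and 0.0544 CPM in WT and 0.609, 3.51 and 8.19 CPM in Abca4KO (log2 fold change 3.51, SE 1.09, adjusted p = 0.616). Single libraries moved these values: Ighg1 was at 1.60 without Abca4KO 2 and 4.43 without WT 2, and Ighg3 at 2.52 without Abca4KO 3 and 4.85 without WT 1.

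Ighg2c was the C gene in which the genotypes did not overlap. It had 4, 3 and 3 raw counts in the WT libraries and 21, 313 and 473 in Abca4KO replicates 1, 2 and 3, with means of 0.178 ± 0.0273 CPM and 14.9 ± 13.3 CPM (SD, n = 3 each). Every Abca4KO value exceeded every WT value, and the WT values sat at the level of a few reads. Whether either line carries Ighg2c rather than Ighg2a was not tested, and line and genotype cannot be told apart. Only the Abca4KO libraries carried Ighg2c past the low-count filter. Its separation and the p-values below describe these libraries and support nothing further. Its fold change on the log2 scale was 6.33 (SE 1.21). The adjusted p was 0.393 in the edgeR fit, 9.20e-05 in DESeq2 and 0.0196 in edgeR without the low-count filter. Without Abca4KO 1 the adjusted p in edgeR was 0.00868 for Ighg2c and 0.0195 for Ighg2b. Over the 6 fits that each left out 1 library, the adjusted p of Ighg2c ran from 0.00868 to 0.976. DESeq2 also called Ighg2b (adjusted p = 0.0149) and Ighg3 (adjusted p = 0.0350). Ighg3 had 15, 4 and 1 raw counts in WT and 12, 68 and 141 in Abca4KO. Ighg3 too passed the filter through the group where it was high, so its call supports nothing further.

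Igha, the C gene of IgA, the class secreted at mucosal surfaces, had the most counts of the heavy chain genes. It measured 13.6, 40.2 and 6.91 CPM in WT and 33.4, 279 and 71.3 CPM in Abca4KO. Abca4KO 1 was below WT 2, so the genotypes overlapped (log2 fold change 2.66, SE 0.90, adjusted p = 0.639). Without Abca4KO 2 the fold change was 1.38, and without WT 2 it was 3.64. Ighe, the IgE gene, had 9 raw counts in WT 1, 33 in Abca4KO 2 and 0 in the other 4 libraries. A count of 0 allows up to 0.152 to 0.174 CPM in those libraries, for counting error only.

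The IgM and IgD genes did not follow the switched classes. Ighm, the IgM gene, measured 37.6, 35.9 and 6.70 CPM in WT and 13.9, 31.2 and 31.8 CPM in Abca4KO. Group means were 26.7 ± 17.4 and 25.6 ± 10.2 CPM (SD, n = 3 each), and the log2 fold change was -0.06 (SE 0.60, adjusted p = 0.989), with a sign that turned positive in 5 other fits. Ighd, the IgD gene, measured 2.88, 8.16 and 3.70 CPM in WT and 1.32, 2.84 and 3.08 CPM in Abca4KO (log2 fold change -1.03, SE 0.50, adjusted p = 0.732, and -0.45 without WT 2). Both genes overlapped between the genotypes. Per kilobase of gene, Ighm was at 19.9, 19.0 and 3.55 CPM in WT and 7.37, 16.5 and 16.9 CPM in Abca4KO, and Igha at 5.10, 15.1 and 2.59 CPM in WT and 12.5, 104 and 26.7 CPM in Abca4KO. On that scale Ighm was above Igha in each WT library and below it in each Abca4KO library. In raw counts this split failed, since Igha exceeded Ighm also in WT 2 (749 against 668) and WT 3 (127 against 123).

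**Figure D2:**
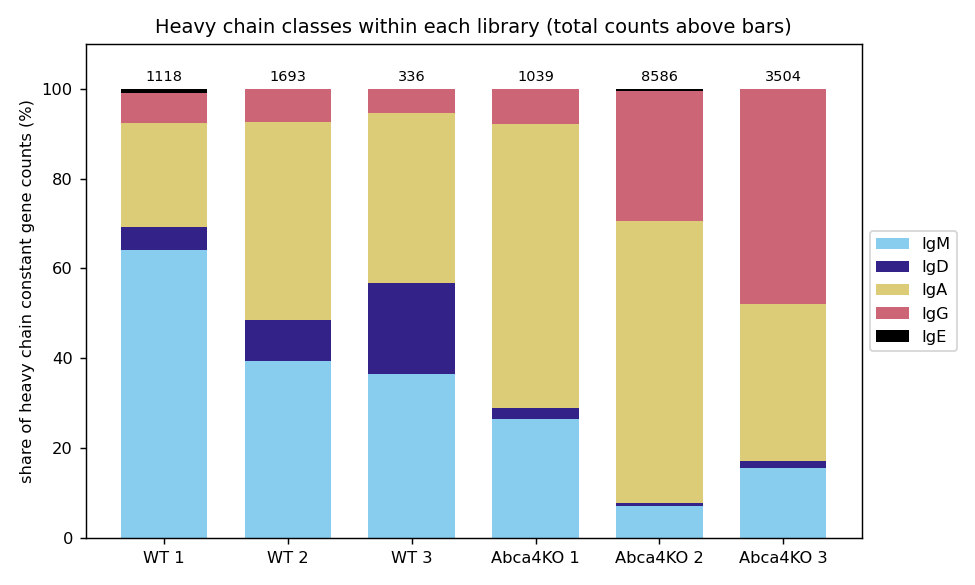
Share of heavy chain C gene counts (%) taken by IgM, IgD, IgA, IgG and IgE in each library, with the total of those counts above each bar. The switched classes IgA, IgG and IgE together fill 30.9% to 51.6% of the WT bars and 71.1% to 92.3% of the Abca4KO bars.

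The class mix within a library, which does not depend on library size, separated the genotypes even where the amount did not. Switched classes (IgA, IgG and IgE) took 30.9% of heavy chain C counts in WT 1 (95% exact binomial interval 28.2 to 33.7%), 51.6% in WT 2 (49.2 to 54.0%) and 43.2% in WT 3 (37.8 to 48.6%). They took 71.1% in Abca4KO 1 (68.3 to 73.9%), 92.3% in Abca4KO 2 (91.7 to 92.9%) and 82.9% in Abca4KO 3 (81.6 to 84.1%). The shares of the genotypes did not overlap, including that of Abca4KO 1, whose summed level was within the WT range. Among single genes tested, 5.93% had every Abca4KO library above every WT library and 6.85% had every one below. The separation of the shares therefore describes these libraries and supports nothing further. The mean difference was 40.2 percentage points, and 34.7 to 45.7 when 1 library was left out. The intervals treat the reads of 1 library as independent and leave out variation between mice. Reads carry no molecular identifiers, so the intervals may be too narrow even for counting error. The share was not tested because it is a score over genes proposed with these results known. Counted per kilobase of gene, the switched share was 24.6%, 43.1% and 35.5% in WT and 64.2%, 89.9% and 80.0% in Abca4KO.

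The 2 libraries rich in immunoglobulin differed in their class mix. IgA took 62.9% of heavy chain C counts in Abca4KO 2 (61.9 to 64.0%) and 35.0% in Abca4KO 3 (33.4 to 36.6%), while IgG took 29.0% (28.1 to 30.0%) and 47.9% (46.2 to 49.5%). In Abca4KO 1, IgA took 63.3% (60.3 to 66.3%) and IgG 7.80% (6.24 to 9.60%). The IgG share of Abca4KO 1 was close to the 6.80%, 7.32% and 5.36% of the WT libraries, so its high switched share came from IgA against IgM. Within IgG, Ighg2b led in both rich libraries, with 51.5% and 51.6% of IgG counts. Ighg1 took 33.2% of IgG counts in Abca4KO 2 and 11.8% in Abca4KO 3, and Ighg2c took 12.6% and 28.2%.

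Light chain C genes followed the same libraries. Igkc, the single C gene of kappa chains, measured 29.4, 50.1 and 9.58 CPM in WT and 41.2, 489 and 308 CPM in Abca4KO replicates 1, 2 and 3. Abca4KO 1 was below WT 2, so the groups overlapped (log2 fold change 3.24, SE 0.91, adjusted p = 0.616). It was at 2.56 without Abca4KO 2 and 3.84 without WT 2. The 4 lambda C genes summed to 1.20, 1.93 and 0.490 CPM in WT and 0.863, 7.02 and 7.03 CPM in Abca4KO. Kappa took 96.1%, 96.3% and 95.1% of light chain C counts in WT and 97.9%, 98.6% and 97.8% in Abca4KO, a mean difference of 2.27 percentage points. Iglc2 had 4, 2 and 5 raw counts in WT and 3, 104 and 54 in Abca4KO, and its near copy Iglc3 (95.1% identity) had 1, 18 and 2 in WT and 5, 7 and 35 in Abca4KO, so that the split between the pair is uncertain. Iglc1 had the smallest contrast of the tested C genes with positive fold changes (log2 fold change 0.90, SE 0.80, adjusted p = 0.861, and 0.41 to 1.29 with 1 library left out), and Iglc4 had no count.

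**Figure D3:**
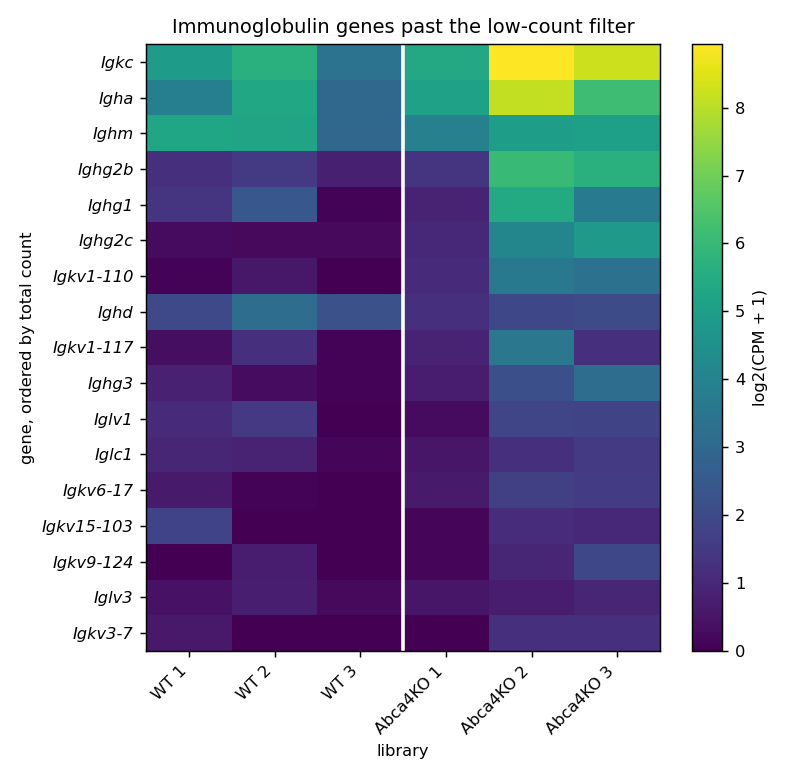
Levels of the 17 immunoglobulin genes past the low-count filter in each library, as log2(CPM + 1), ordered by total count, with a white line between WT and Abca4KO. The brightest cells are Igkc and Igha in Abca4KO 2 and Igkc in Abca4KO 3, and Ighm is about equally bright in both genotypes except in WT 3 and Abca4KO 1.

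V genes encode the antigen-binding end of each chain, so their mix reflects which clones contributed. The 218 V genes together had 183, 236 and 30 raw counts in WT and 159, 1834 and 1398 in Abca4KO, between 5.44% and 13.5% of all V and C counts of a library. Kappa V genes took 53.3% to 81.7% of V counts and heavy chain V genes 12.0% to 36.7%, with the lowest kappa share and the highest heavy share in WT 3, which had the fewest counts. Heavy chain V genes had 509 counts beside 16276 for heavy chain C genes, and kappa V genes 3066 beside 17271 for Igkc. No library had a count in 71 of 113 heavy chain V genes and 34 of 102 kappa V genes. The reference genome is not of the strain of the WT mice. Whether heavy chain V reads were lost in alignment for that reason was not tested. A total of 113 V genes had a count, and in 92 of them the highest raw count was in Abca4KO 2 or Abca4KO 3. Those 2 libraries held 84.2% of all V counts, so nothing is read from the 92. The 10 V genes with the highest totals were Igkv1-110, Igkv1-117, Iglv1, Igkv10-96, Igkv4-68, Igkv12-44, Igkv12-46, Igkv4-53, Ighv2-2 and Igkv6-17. They held 43.1% of V counts.

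Igkv1-110 led in all 3 Abca4KO libraries. It had 1, 9 and 0 raw counts in WT and 22, 220 and 160 in Abca4KO replicates 1, 2 and 3. The genotypes did not overlap (log2 fold change 5.29, SE 1.20, adjusted p = 0.509, and 7.77 without WT 2). Igkv1-110 passed the low-count filter only through the Abca4KO libraries, so this separation supports nothing further. Igkv1-117, its near copy printed above, had 5, 24 and 1 counts in WT and 16, 206 and 22 in Abca4KO, and it overlapped between the genotypes (log2 fold change 2.97, SE 1.25, adjusted p = 0.706). That value was 0.96 without Abca4KO 2, which held 206 of its counts, and 4.68 without WT 2. Igkv6-17 had 11, 1 and 0 counts in WT and 11, 43 and 33 in Abca4KO (log2 fold change 2.84, adjusted p = 0.691, and 5.54 without WT 1). The other tested V genes, namely Igkv9-124, Igkv3-7, Iglv1, Iglv3 and Igkv15-103, had log2 fold changes of -0.12 to 2.64 and adjusted p-values of 0.768 to 0.992, and with 1 library left out their fold changes ran from -0.70 to 7.57. Igkv4-68 had 0 counts in the WT libraries and in Abca4KO 1, but 70 in Abca4KO 2 and 60 in Abca4KO 3.

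No single V gene dominated the rich libraries. The leading V gene took 12.0% of V counts in Abca4KO 2 (95% exact interval 10.5 to 13.6%), 11.4% in Abca4KO 3 (9.82 to 13.2%) and 13.8% in Abca4KO 1 (8.88 to 20.2%), each time Igkv1-110. In WT 1 it was Igkv15-103, with 48 of 183 counts or 26.2% (20.0 to 33.2%). In WT 2 it was Iglv1, with 14.0% (9.82 to 19.1%), and in WT 3 Ighv1-9 and Igkv1-135 had 5 of 30 counts each. The number of V genes with at least 1 count was 28, 38 and 15 in WT and 34, 84 and 85 in Abca4KO. In a draw of 30 V counts from each library, the expected number of V genes was 14.7, 17.3 and 15 in WT and 17.4, 19.7 and 20.6 in Abca4KO. A draw of 30 counts can hold at most 30 V genes, so it narrows any difference between libraries. The inverse Simpson number is the number of equally used V genes with the same concentration of counts. It was 9.66, 17.6 and 10.5 in WT and 17.5, 23.1 and 28.3 in Abca4KO, with only 30 V counts behind the value of WT 3.

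The 2 rich libraries shared part of their V genes. Of the 46 V genes with at least 10 counts in Abca4KO 2 and the 38 in Abca4KO 3, 27 were the same, 58.7% of the first list and 71.1% of the second. Among their 10 leading V genes 5 were shared, namely Igkv1-110, Igkv10-96, Igkv12-46, Igkv4-68 and Iglv1. Others differed widely between the pair. Igkv4-53 had 97 counts in Abca4KO 2 and 0 in Abca4KO 3, and Iglv2, chosen after its values were seen, had 52 and 0. In the other direction Igkv12-44 had 17 counts in Abca4KO 2 and 99 in Abca4KO 3, and Igkv4-90, also chosen after its values were seen, had 0 and 29. A total of 5 V genes had at least 10 counts in Abca4KO 2 and 0 in Abca4KO 3, and 3 the reverse.

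**Figure D4:**
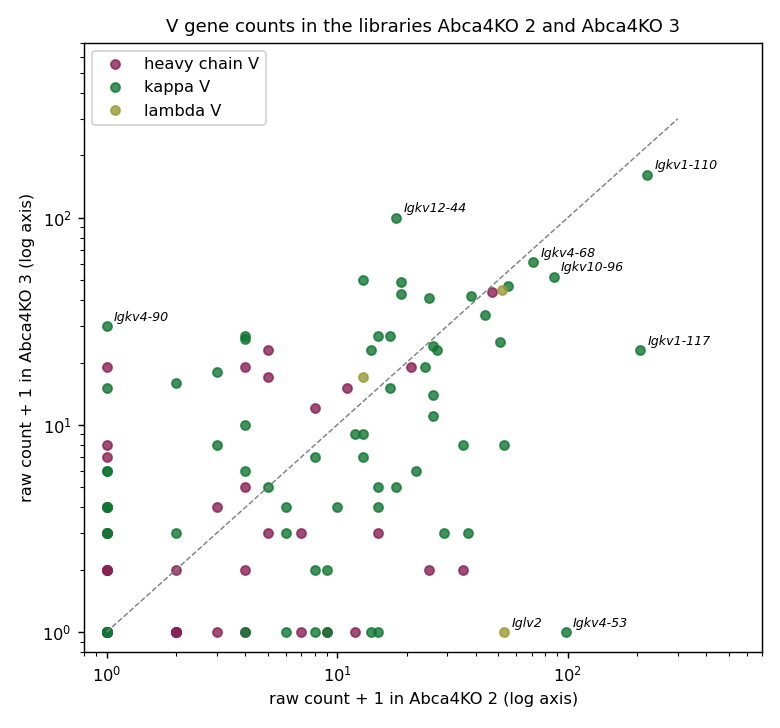
Raw counts of each V gene in Abca4KO 2 and Abca4KO 3 (count + 1, log axes), coloured by locus, with a dashed line of equal counts. Igkv1-110 is high in both (220 and 160), whereas Igkv4-53 and Iglv2 lie on the floor of Abca4KO 3 and Igkv4-90 on that of Abca4KO 2.

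Of the plasma cell markers, Jchain moved most with the immunoglobulin genes. Jchain encodes the chain that joins IgA and IgM molecules into polymers, and it measured 10.4, 12.4 and 6.04 CPM in WT and 12.4, 97.9 and 53.3 CPM in Abca4KO replicates 1, 2 and 3. Abca4KO 2 and Abca4KO 3 were the highest libraries and Abca4KO 1 was close to WT 2 (log2 fold change 2.50, SE 0.67, adjusted p = 0.595, and 1.77 without Abca4KO 2). Of 13 plasma cell markers 12 were tested and 0 passed the adjusted threshold, beside 0.0461% of all genes. Of the 12, 9 were above 0, beside 47.8% of all genes, and the median log2 fold change was 0.10. Mzb1, an endoplasmic reticulum chaperone of antibody-secreting cells, measured 1.31, 1.99 and 0.163 CPM in WT and 0.913, 2.37 and 2.21 CPM in Abca4KO (adjusted p = 0.897). The receptor gene Tnfrsf17 lay between 0 and 0.258 CPM in all libraries. Xbp1 and Txndc5, secretory pathway genes that many cells express, and the surface proteoglycan gene Sdc1 had log2 fold changes of 0.11, 0.09 and -0.64, with adjusted p-values of 0.812, 0.889 and 0.787. Like Jchain, Mzb1, Fkbp11, Tnfrsf17, Xbp1 and Txndc5 were highest in Abca4KO 2 and Abca4KO 3, but by smaller margins. Xbp1 measured 134 and 129 CPM there against at most 119 CPM elsewhere. The other markers of the list did not have that order. Without Jchain, the list summed to 245, 300.4 and 247 CPM in WT and 237, 287 and 285 CPM in Abca4KO, with overlap. Xbp1 and Txndc5 made up most of that sum in every library, at 116 and 91.7 CPM in WT 1, so it is not particular to plasma cells.

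The summed B cell markers overlapped between the genotypes. The 12 genes summed to 31.7, 52.7 and 21.9 CPM in WT and 29.0, 45.9 and 47.9 CPM in Abca4KO, highest in WT 2. Of the 10 tested, 0 passed (0.0461% of all genes), 6 were above 0 (47.8% of all genes) and the median log2 fold change was 0.26. Ms4a1, which encodes the B cell surface protein CD20, measured 0.995, 3.92 and 1.03 CPM in WT and 0.457, 0.671 and 0.639 CPM in Abca4KO (log2 fold change -1.74, SE 0.65, adjusted p = 0.691, and -0.78 without WT 2). The genotypes did not overlap, with Abca4KO below WT, which held for 6.85% of all genes tested. Cd79a, a subunit gene of the B cell receptor, had a log2 fold change of 0.33 (adjusted p = 0.938), and Cd22, which encodes an inhibitory B cell receptor, one of 0.59 (adjusted p = 0.761). Of 6 genes of V(D)J recombination and class switching 0 passed the filter, and they summed to at most 1.73 CPM, with Rag2 at 0 counts in all libraries.

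**Figure D5:**
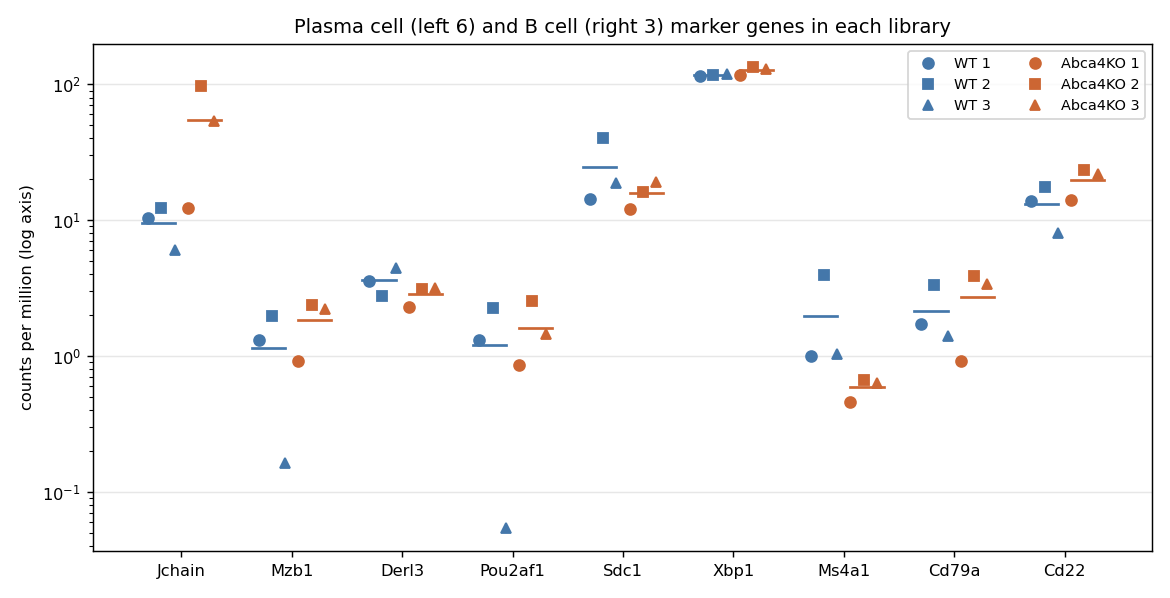
CPM (log axis) of 6 plasma cell and 3 B cell marker genes, 1 point per library and a line at each group mean (n = 3). Jchain is highest in Abca4KO 2 and Abca4KO 3 (97.9 and 53.3 CPM), and so, by smaller margins, are Mzb1, Xbp1, Cd79a and Cd22. All plotted genes except Ms4a1 overlap between the genotypes, Jchain included. Libraries with 0 counts would not appear on the log axis, and there are none here.

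Receptors and survival factors of the antibody system gave 0 calls, beside 0.0461% of all genes tested, so nothing is read from the 0 calls. Of 12 genes of Fc receptors and immunoglobulin transport 10 were tested and 0 passed, with a median log2 fold change of 0.02. Fcgrt, the neonatal Fc receptor that recycles IgG, measured 83.9, 88.5 and 69.1 CPM in WT and 87.0, 98.6 and 95.2 CPM in Abca4KO (log2 fold change 0.22, SE 0.11, adjusted p = 0.755). Fcgr2b, the inhibitory IgG receptor, was at 0.63 in log2 fold change (SE 0.26, adjusted p = 0.706). Pigr, which carries IgA polymers across mucosal epithelia, was at 0.174 to 1.75 CPM. Of 8 survival and homing factors 5 were tested and 0 passed, and the most abundant, the chemokine gene Cxcl12, had a log2 fold change of 0.03 (adjusted p = 0.985).

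Markers of other cell types varied between the libraries as well, and their part in the immunoglobulin levels was not tested. In WT 2, T cell markers summed to 115 CPM against 11.5 to 48.6 CPM elsewhere, interferon response genes to 1735 against 89.0 to 168 CPM, and ocular surface markers to 440.02 against 2.32 to 58.5 CPM. WT 2 was also the WT library with the most immunoglobulin, and without it the log2 ratio of the summed levels was 3.17. The 6 ocular surface markers summed to 49.3 CPM in Abca4KO 2 and 2.32 CPM in Abca4KO 3. Within that list the cornea keratin gene Krt12 was at 0 in both, whereas the keratin genes Krt13 and Krt4 were highest in Abca4KO 2, at 15.8 and 13.5 CPM against at most 8.17 and 10.4 CPM elsewhere. Macrophage markers were highest in Abca4KO 2 and Abca4KO 3, at 5011 and 3914 CPM against 1947 to 3235 CPM in the other 4, and of the 10 tested 6 were above 0. Most of that sum was 1 gene, the lysozyme gene Lyz2, and without it the list summed to 878, 1233 and 768 CPM in WT and 841, 1074 and 956 CPM in Abca4KO, highest in WT 2. Csf1r, the receptor gene for the macrophage growth factor, was lower in each Abca4KO library than in each WT library (525 to 551 against 567 to 594 CPM, adjusted p = 0.786). It was the largest part of the sum without Lyz2. Lyz2 and Cd68 went the other way, with every Abca4KO library above every WT library. Cd68 measured 137 to 232 CPM in Abca4KO against 71.2 to 124 CPM in WT (adjusted p = 0.573). Over all genes tested, 5.93% had every Abca4KO library above WT and 6.85% below. Red blood cell genes summed to 2569 CPM in Abca4KO 2, but to 1306 CPM in Abca4KO 3, within the WT range of 1118 to 1780 CPM. Of the 7 endothelial markers 7 were above 0, and they summed to 250 to 421 CPM in WT and 403 to 636 CPM in Abca4KO. Of the 12 T cell markers tested 2 were above 0. In each of these lists 0 genes passed the adjusted threshold, beside 0.0461% of all genes tested. Of all genes tested, 47.8% had a log2 fold change above 0. Iglv2, Igkv4-90, Derl3, Fkbp11, Tnfrsf17, Rag2, Krt4, Krt12 and Krt13 were named after their values were seen.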

How the data were processed

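The deposited table holds raw read counts per gene, which are not normalized, and the gene length in bases that the authors' annotation gives. The submitters' processing notes list STAR, HTSeq and mm10 and give no version. All 231 members had the coordinates and strand of GENCODE M21, whose transcripts gave the printed sequences. Genes overlapping a member with at least 10 counts held at most 12 counts over the 6 libraries.

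Genes were filtered with filterByExpr (minimum count 10, 17340 kept) and tested across all genes with edgeR 4.0.16 in R 4.3.3 (TMM scaling, quasi-likelihood test, 2-sided, no covariate, Benjamini-Hochberg adjustment, threshold 0.05). The main edgeR fit, but not the alternatives, was tested on simulated counts with the same dispersion for every gene. That simulation does not cover genes as uneven within a group as these. CPM use TMM-scaled library sizes and fold changes are Abca4KO minus WT with a prior count of 0.125. SE denotes a standard error, taken as the absolute fold change divided by the root of F. Shares have exact binomial 95% intervals. Alternatives were DESeq2 1.42.0, limma 3.58.1 (voom), other scalings, filters and prior count, a replicate block and leaving out each library.

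The members and the gene lists were chosen with earlier results of these data known. Named were Abca4, C genes with at least 10 counts, the 10 V genes of highest total, each library's leading V gene, up to 3 further members per direction by p, and list members by level, not by change (those of lists other than the antibody lineage are given mostly as sums). A gene of the B cell list is not reported here.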

Additional observations from a re-analysis of the deposited data

How the results depend on the processing

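Of 377 refits of single genes, 359 kept direction and side of the threshold, 6 passed newly (Ighg2b, Ighg2c and Ighg3, given above) and 12 turned sign, and for the turned signs the cause was not tested. Ighm turned to 0.0028 under limma-voom and 0.12 under the replicate block (-0.52 to 0.27 with 1 library left out), Igkv15-103 to 0.039 and 1.60 (-0.70 to 6.87), Sdc1 to 0.021 under limma-voom, and with 1 library left out Cd72 ran from -0.073 to 0.74 and Cd79a from -0.014 to 0.78. Over all genes 8 passed, against 19 without the filter, 114 in DESeq2, 31 in limma-voom and 3 to 11 with 1 library left out. Immunoglobulin calls were 0, against 1 without the filter, 3 in DESeq2 and 0 to 2 with 1 library left out (2 without Abca4KO 1). The median log2 fold change of tested members, 2.66, ran from 1.60 to 4.43 with 1 library left out, where 17 to 38 members passed the filter. The summed log2 ratio ran from 1.89 to 3.17, the kappa difference from 1.93 to 2.50 points and the switched share difference from 34.7 to 45.7 points (43.6 per kilobase, both alternatives chosen after seeing the data). The leading V gene's share differed by -6.53 points (Abca4KO minus WT), -12.6 among kappa V genes alone and -9.02 to -2.90 with 1 library left out.

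Deviations of same-numbered libraries correlated at 0.24, 0.40 and -0.11, and WT 3 was most like Abca4KO 1 (0.37). The value of replicate 2, 0.40, was the highest of all pairs. These values do not settle whether replicate numbers pair the libraries. With the replicate block 9 genes and 0 immunoglobulin genes passed. Low counts limit the V genes: WT 3 held 30 V counts in all.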

Other observations

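The ratio of Ighd to Ighm, which mature B cells make from 1 primary transcript, varied more among WT than among Abca4KO libraries. There were 7.66, 22.8 and 55.3 Ighd counts per 100 Ighm counts in WT (replicate order) and 9.49, 9.11 and 9.69 in Abca4KO. Igha had 36.2, 112 and 103 counts per 100 Ighm counts in WT and 240.1, 895 and 224 in Abca4KO.

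Jchain had 35.3, 24.8 and 63.1 counts per 100 Igkc counts in WT and 30.1, 20.0 and 17.3 in Abca4KO. The 4 plasma cell genes Mzb1, Derl3, Tnfrsf17 and Pou2af1 had 121, 131 and 86 raw counts together in WT and 82, 160 and 122 in Abca4KO. These ratios were chosen after the values were seen and were not tested.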
